A study of Mus musculus with 2 samples.

Results

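The genes described here encode the basement membrane of endothelial cells and the matrix proteins bound to it. They are *Col4a1* and *Col4a2* (the α1 and α2 chains of type IV collagen), *Lama4*, *Lamb1* and *Lamc1* (laminin α4, β1 and γ1), *Nid1* and *Nid2* (nidogens), *Hspg2* (perlecan), *Sparc* and *Fn1* (fibronectin). These 10 genes were taken by name from a count table of 23154 genes, of which 13206 had a count in at least 1 cell. They were read in all 87 cells of the PK44 phenotype, sorted as CD41-CD43-CD45-CD31+CD201+Kit+CD44+ from the yolk sac of mouse embryos at E10.0 and, as a second reading, in the 84 cells left without those holding 100 or more counts of *Col1a1*. PK44 is a sort gate for hemogenic endothelial cells, the endothelial cells from which blood cells arise. The mice had a C57BL/6 background, no gene was altered and nothing was administered. The 43 cells of replicate 1 and the 44 cells of replicate 2 were all of this single condition, and the labels do not say whether the libraries came from separate embryos, so every value below measures the spread between these libraries, which may be technical.

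A basement membrane is a thin sheet of matrix on which endothelial cells sit. Laminin heterotrimers polymerize on the cell surface, type IV collagen forms a second network that gives the sheet its strength, and nidogens and perlecan link the networks together. Fibronectin, the ligand of integrin α5β1, and Sparc, a secreted glycoprotein that binds collagen, are laid down beside it in young vessels. During the endothelial-to-hematopoietic transition, hemogenic endothelial cells lose contact with their neighbours and leave the vessel wall, a step that needs the transcription factor Runx1. How the matrix genes vary with *Runx1* among the cells of one gate was therefore the comparison made here.

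The collagen genes are shown first because they lie head to head at a shared start and formed one of the closest pairs in both libraries. On GRCm38 (mm10), *Col4a1* lies on the minus strand at chr8:11198423-11312826 and *Col4a2* on the plus strand at chr8:11312805-11449287. Their GENCODE M21 models overlap head to head by 22 bases (chr8:11312805-11312826), given in capitals within the plus strand sequence of chr8:11312801-11312830 from RefSeq (GRCm38.p6).
Col4a1 and Col4a2: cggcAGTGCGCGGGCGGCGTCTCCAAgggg
The other genes lie apart from each other. *Lama4* is at chr10:38965515-39110188, *Lamb1* at chr12:31265234-31329644, *Nid1* at chr13:13437551-13512269, *Nid2* at chr14:19751265-19811787 and *Hspg2* at chr4:137468769-137570630, all on the plus strand. *Sparc* is at chr11:55394500-55423183, and both *Lamc1* (chr1:153218922-153332786) and *Fn1* (chr1:71585520-71653200) are on chromosome 1, all on the minus strand.

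RefSeq promoter entries matched 6 of the 10 genes (*Col4a1*, *Col4a2*, *Hspg2*, *Lamb1*, *Nid1* and *Sparc*). The bases before the first annotated start of *Nid1*, *Hspg2* and *Lamb1* are shown as examples of genes that were lower in *Runx1*-high cells of both libraries and whose entries held a GC box (GGGCGG or its reverse CCGCCC), which is in capitals. *Col4a2* met both conditions too, and its start is the one shown above. They cover chr13:13437352-13437550, chr4:137468553-137468768 and chr12:31265043-31265233, each read 5′ to 3′ on the plus strand.
Nid1: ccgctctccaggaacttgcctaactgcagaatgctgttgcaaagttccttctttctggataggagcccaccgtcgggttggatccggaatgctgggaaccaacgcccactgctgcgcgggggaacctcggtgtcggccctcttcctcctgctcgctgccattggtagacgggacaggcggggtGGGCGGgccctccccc
Hspg2: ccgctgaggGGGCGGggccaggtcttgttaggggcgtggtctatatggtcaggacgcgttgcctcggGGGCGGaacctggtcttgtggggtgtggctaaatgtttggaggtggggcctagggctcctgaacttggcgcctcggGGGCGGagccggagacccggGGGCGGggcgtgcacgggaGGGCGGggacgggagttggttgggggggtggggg
Lamb1: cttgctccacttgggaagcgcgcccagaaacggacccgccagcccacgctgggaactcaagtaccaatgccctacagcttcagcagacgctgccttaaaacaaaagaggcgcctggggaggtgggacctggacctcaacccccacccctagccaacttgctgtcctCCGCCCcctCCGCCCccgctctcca
Over the 250 bases before the start, on both strands, a GC box was found in the entries of 4 of the 6 genes and in 32.7% of 32851 promoters. It was found 5 times for *Hspg2*, 2 times each for *Lamb1* and *Col4a2* and once for *Nid1*. A CCAAT box (CCAAT or ATTGG) was found for 4 of the 6 genes, *Col4a1*, *Col4a2*, *Lamb1* and *Nid1*, and in 33.8% of promoters. The letters of a RUNX motif (TGTGGT or ACCACA, 14.0% of promoters) and of an ETS motif (CCGGAAGT or ACTTCCGG, 2.88% of promoters) were in none of the 6 windows. The motifs searched do not overlap each other in their letters, and a match describes the sequence only.

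Counts were taken from the 3′ ends of transcripts with unique molecular identifiers (UMIs), so levels of different genes were compared as counts scaled to a total of 1e+06 (CPM) without a correction for length. Replicate 1 held 8932527 counts (median 141577 per cell, range 13218 to 702028) and replicate 2 held 12706360 counts (median 238898 per cell, range 51620 to 956593). No cell number was shared by the libraries. Markers of endothelial cells were found in both libraries, with *Cdh5* (VE-cadherin) at 463 and 632 CPM and counts in all 87 cells. Of the markers of visceral yolk sac endoderm, 5 of 8 (*Apoa4*, *Apob*, *Rbp4*, *Amn* and *Cubn*) had no count in any cell. The other three, *Afp* (0 and 4.25 CPM, 10 cells), *Ttr* (0 and 5.04 CPM, 7 cells) and *Apoa1* (0 and 7.16 CPM, 13 cells), had counts in replicate 2 alone, and the summed level of the list reached 289 CPM in 1 cell. Of 6 markers of parietal endoderm, which lays down much basement membrane, *Stra6* and *Krt19* had no count, *Lama1* was at 0 and 8.42 CPM and *Pth1r* at 9.29 and 1.73 CPM. The keratins *Krt18* (96.7 and 35.2 CPM, 47 cells) and *Krt8* (21.5 and 7.08 CPM, 22 cells) were detected more widely. Over the list, *Runx1*-high and *Runx1*-low cells, defined below, had 83.0 and 208 CPM in replicate 1 and 50.6 and 55.1 CPM in replicate 2, and the part of such cells in the results was not tested. *Col1a1*, a collagen of mesenchymal cells, had a count in 56 cells but 10 or more counts in 6 cells, so shares of cells are given below for both limits.

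The matrix genes together made up 0.415% of the counts of replicate 1 and 0.548% of those of replicate 2, a summed level of 4818 ± 940 CPM (SD, n = 2 libraries). *Sparc*, *Col4a1*, *Fn1* and *Col4a2* gave 87.6% and 86.1% of it. In single cells the summed level ran from 177 through a median of 3192 to 15006 CPM in replicate 1 and from 451 through 6655 to 15810 CPM in replicate 2. The highest cells of the libraries were thus alike, and the median cell of replicate 2 was above that of replicate 1. Of the 10 genes, a cell of replicate 1 had a count of 7 (median, range 5 to 10) and a cell of replicate 2 of 9 (6 to 10). Replicate 1 was the shallower library.

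*Sparc* had 1760 and 2190 CPM in replicates 1 and 2 (1975 ± 304, SD, n = 2) and ranked 72 and 30 among all genes. It had a count in all 87 cells and 10 or more in 83 cells. Its cells ranged from 57.8 through a median of 1662 to 9020 CPM in replicate 1 and from 53.6 through 2406 to 7804 CPM in replicate 2. It was the highest of the 10 genes in both libraries.

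The type IV collagen chains came next with fibronectin. *Col4a1* had 865 and 1188 CPM (1027 ± 228, SD, n = 2), with a count in all 87 cells and 10 or more in 76 cells. *Col4a2* had 326 and 702 CPM (514 ± 266), with a count in 86 cells and 10 or more in 68 cells. The α2 chain thus differed 2.15-fold between the libraries and the α1 chain 1.37-fold. *Fn1* had 688 and 641 CPM (664 ± 33.2), with a count in all 87 cells and 10 or more in 69 cells. Its medians over cells were 353 and 419 CPM and its highest cells 2551 and 4417 CPM, so the summed level of fibronectin rested on the upper part of the cells in both libraries.

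Type IV collagen is built from more α1 than α2 chains, and the transcripts were unequal in the same sense. The summed counts of *Col4a1* were 2.65 times those of *Col4a2* in replicate 1 and 1.69 times in replicate 2. In the cells with 10 or more counts of both, the median ratio was 2.55 over 26 cells of replicate 1 and 1.41 over 41 cells of replicate 2. *Col4a1* was the higher chain in 20 of these 26 cells and in 32 of these 41 cells. The ratio in *Runx1*-high cells (defined below) was 3.27 in replicate 1 and 1.53 in replicate 2 and that in *Runx1*-low cells 2.28 and 1.78, so the libraries went opposite ways. The 3′ end of *Col4a1* is overlapped by the antisense gene *Gm15418*, and whether the counting used strand is not stated, so reads of the pair cannot be told apart.

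Perlecan and nidogen 1 formed a middle layer. *Hspg2* had 114 and 300.2 CPM (207 ± 131, SD, n = 2), 2.62-fold apart between libraries, with a count in 84 cells and 10 or more in 55 cells. *Nid1* had 175 CPM in each library (175 ± 0.0894), with a count in 75 cells (86.2%, exact 95% interval 77.1% to 92.7%, counting error only) and 10 or more in 52 cells. By library, a count was found in 32 of 43 cells and 43 of 44 cells, which the interval over pooled cells does not cover. The equal sums of *Nid1* hid different cells: its median over cells was 28.3 CPM in the first library and 122 CPM in the second, and 50% of its counts came from 3 cells and from 8 cells.

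The laminin chains were lower and uneven. *Lamb1* had 98.3 and 73.2 CPM (85.7 ± 17.7, SD, n = 2), with a count in 64 cells and 10 or more in 25 cells. *Lama4*, the α chain typical of endothelium, had 64.6 and 81.1 CPM (72.9 ± 11.7), with counts in 52 cells and 10 or more in 22 cells. *Lamc1* had 43.0 and 100.3 CPM (71.6 ± 40.5), with counts in 49 cells and 10 or more in 29 cells. A few cells carried these sums in replicate 1, where the highest cell held 36.7% of the *Lama4* counts, 27.3% of the *Lamb1* counts and 35.2% of the *Lamc1* counts. In replicate 2 the highest cell held 15.5%, 18.8% and 15.2%. A laminin trimer needs an α, a β and a γ chain, and all 3 chains were detected together in 5 of the 43 cells of replicate 1 and 22 of the 44 cells of replicate 2. With 10 or more counts of each, 1 cell and 9 cells were left.

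*Nid2* was the lowest of the 10 genes, at 18.8 and 31.1 CPM (24.9 ± 8.68, SD, n = 2). It had a count in 35 cells (40.2%, exact interval 29.9% to 51.3%, counting error only) and 10 or more in 20 cells. By library, a count was found in 10 of 43 cells and 25 of 44 cells, a difference that the interval over pooled cells does not cover. Its last 437 bases overlap *Rtraf* (in the table as *2700060E02Rik*) on the other strand, so that its values are uncertain for the reason given for *Col4a1*. Of the nidogens, 10 or more counts of *Nid1* with fewer of *Nid2* were found in 16 cells of replicate 1 and 22 cells of replicate 2. The reverse was found in 1 cell and 5 cells.

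**Figure D1:**
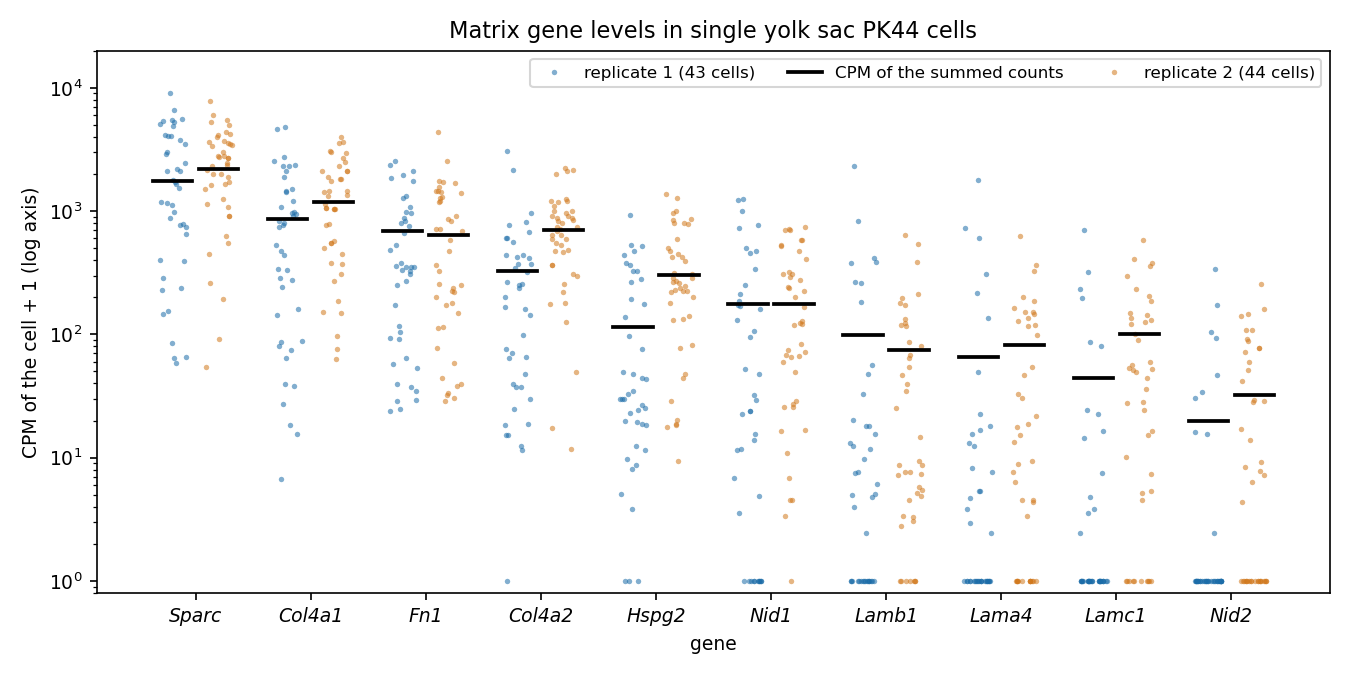
Levels of the 10 matrix genes in single yolk sac PK44 cells, as CPM + 1 on a log axis, with 1 point per cell for replicate 1 (43 cells, blue) and replicate 2 (44 cells, orange). Black bars mark the CPM of the summed counts of a library, which run from 1760 and 2190 CPM for *Sparc* down to 18.8 and 31.1 CPM for *Nid2*, and cells without a count lie at 1.

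In this order, the libraries' values of *Sparc* did not overlap those of *Col4a1*, nor those of *Col4a1* with *Fn1*. The values of *Fn1* and *Col4a2* overlapped, as did those of *Hspg2* and *Nid1*, so neither pair is ordered beyond the spread between libraries. *Lamb1*, *Lama4* and *Lamc1* could not be ordered among themselves either, while all were above *Nid2* in every library. Between the libraries, 7 of the 10 genes were higher in replicate 2 and 3 of them (*Col4a2*, *Lamc1* and *Hspg2*) by 2-fold or more.

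Other genes of the basement membrane were read from a list of 20. *Col18a1*, which encodes the collagen whose C-terminal fragment is endostatin, was the highest of them at 772 and 1152 CPM, with a count in all 87 cells, a level in the range of *Col4a1*. *Agrn* (agrin, 40.0 and 85.2 CPM), *Tinagl1* (42.3 and 63.5 CPM) and *Npnt* (nephronectin, 17.5 and 90.2 CPM) followed. Of the other laminin chains, *Lamb2* had 27.0 and 60.5 CPM, *Lama5* 26.9 and 44.3 CPM and *Lama3* 42.3 and 33.4 CPM. *Lamb3*, *Lamc3*, *Col4a4* and *Ntn4* had no count in any cell.

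Co-expression was read as Spearman's rho of CPM over the cells of 1 library, which share that library and its range of depths, and is a description only. Over the 45 pairs of the 10 genes the median rho was 0.20 in replicate 1 and 0.32 in replicate 2. Over all pairs of the 3654 genes with a count in at least 50% of the cells of both libraries, it was 0.08 and 0.03. A rho above 0 was found for 40 and 38 of the 45 pairs, against 67.9% and 56.7% of the pairs of those 3654 genes. In both libraries at once, 33 pairs were above 0 and none was below 0.

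The closest pairs were *Col4a1* with *Col4a2* (0.63 and 0.73) and *Col4a1* with *Sparc* (0.62 and 0.74), which took the first and second place in each library. *Col4a2* with *Sparc* (0.51 and 0.65) and *Col4a1* with *Nid1* (0.43 and 0.66) followed. The collagen chains, nidogen 1, perlecan and Sparc thus varied together, with a rho of 0.19 to 0.63 over their 10 pairs in replicate 1 and of 0.38 to 0.74 in replicate 2. These 5 genes were grouped after their values were seen. *Fn1* followed *Sparc* (0.36 and 0.43) and *Col4a1* (0.34 and 0.52).

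The laminin α4 and γ1 chains were more loosely tied to the rest, and nidogen 2 was so in replicate 2. With the other 9 genes, *Lamc1* had a median rho of 0.06 and 0.15, *Lama4* of 0.09 and 0.19 and *Nid2* of 0.20 and -0.11. Among the laminin chains, *Lama4* with *Lamb1* gave 0.25 and 0.42, above the median pair of both libraries. *Lamb1* with *Lamc1* (-0.06 and 0.20) and *Lama4* with *Lamc1* (-0.05 and 0.17) were below it. *Nid2* with *Fn1* gave 0.22 in replicate 1 and -0.36 in replicate 2, the lowest rho of that library. These 3 genes were also those with the fewest counts, and the part of low counts in their rho was not tested. With every cell thinned to 20000 counts, which left out 1 cell of replicate 1, the median over the 45 pairs was 0.15 and 0.30.

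**Figure D2:**
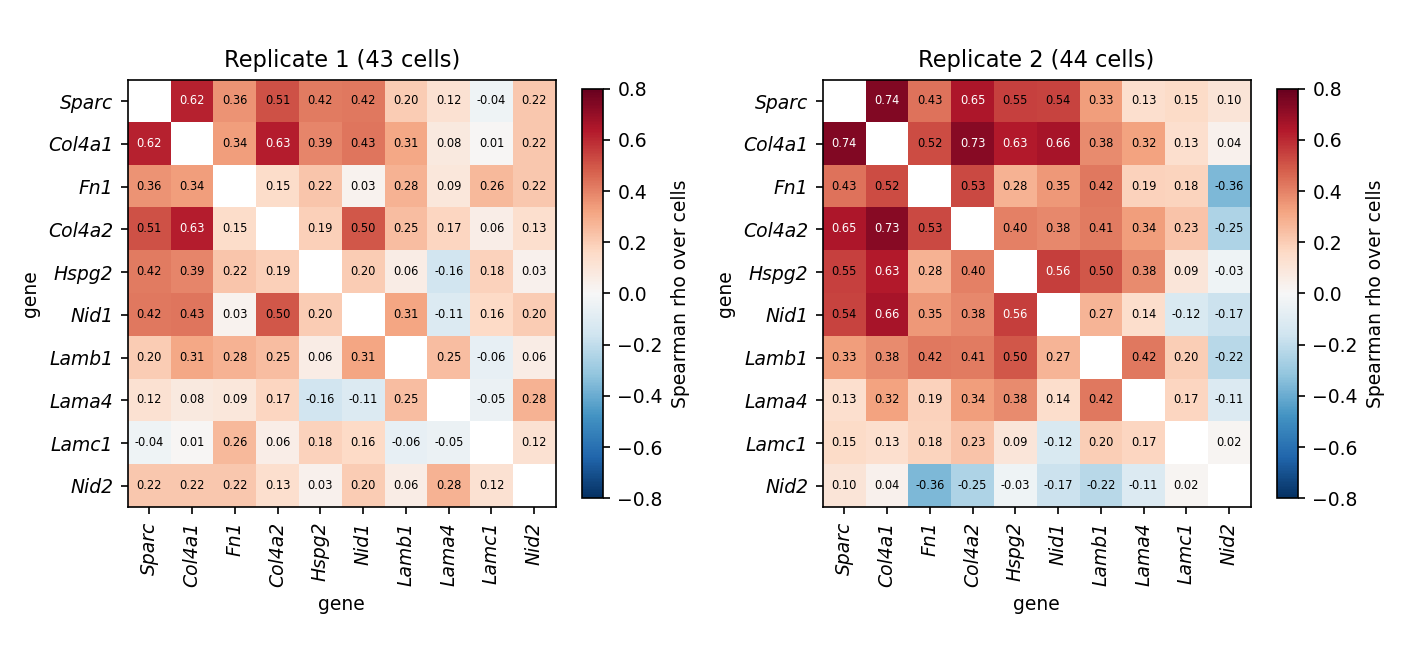
Spearman's rho of CPM for each pair of the 10 matrix genes over the 43 cells of replicate 1 (left) and the 44 cells of replicate 2 (right), with genes in order of level and colour and number giving rho. The values for *Col4a1* with *Col4a2* (0.63 and 0.73) and *Sparc* (0.62 and 0.74) are the highest, and the row of *Nid2* runs from 0.03 to 0.28 in replicate 1 and from -0.36 to 0.10 in replicate 2.

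A score per cell, the mean of log2(CPM + 1) over the 10 genes, ran from 2.38 through a median of 4.82 to 9.02 in replicate 1 and from 3.88 through 6.74 to 9.12 in replicate 2. Its rho with the cell's total count was 0.04 and -0.09. With the mean of the 12 endothelial marker genes it was 0.64 and 0.67. Among the 3654 genes, *Nrp1* (neuropilin 1, a co-receptor of VEGF) was most like the score in the lower of its 2 libraries, at 0.66 and 0.60. *Lifr* (the receptor of leukemia inhibitory factor, 0.58 and 0.62), *Unc5b* (a netrin receptor, 0.57 and 0.60), *Igf2* (insulin-like growth factor 2, 0.55 and 0.69) and *Plvap* (a protein of endothelial fenestrae, 0.55 and 0.59) came next. *Ptprb* (the endothelial receptor phosphatase VE-PTP), *Cdh5*, *Vim* (vimentin), *Cald1* (caldesmon) and *Clec14a* (an endothelial lectin) completed the 10 nearest, the last of them at 0.49 and 0.47. *Nrp1* and *Cdh5* are also among the endothelial markers.

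Every cell was then called *Runx1*-high or *Runx1*-low by whether its *Runx1* CPM was above the median of its own library. *Runx1* had 300.4 and 136 CPM in the libraries and no count in 10 and 9 cells. In replicate 1, 21 *Runx1*-high cells (median 386 CPM of *Runx1*) stood against 22 *Runx1*-low cells (median 3.30 CPM). In replicate 2, 22 *Runx1*-high cells (median 157 CPM) stood against 22 *Runx1*-low cells (median 2.83 CPM). The *Runx1*-high cells began at 52.7 CPM in replicate 1 and at 11.2 CPM in replicate 2, and the *Runx1*-low cells reached 52.2 and 8.85 CPM. The lowest *Runx1*-high cells of replicate 2 thus lay below the highest *Runx1*-low cells of replicate 1. Of all cells, 22 in replicate 1 and 17 in replicate 2 had 10 or more counts of *Runx1*. The *Runx1*-high cells were deeper, with a median of 260240 counts against 95376 in replicate 1 and of 271734 against 213444 in replicate 2. Cells are not replicates, so counts were summed per library and class into 4 sums.

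Across single cells of a library, *Runx1* ran most strongly against *Sparc*, *Nid1* and the type IV collagen chains. The rho with *Runx1* was -0.42 and -0.57 for *Sparc*, -0.41 and -0.51 for *Nid1*, -0.31 and -0.52 for *Col4a1* and -0.26 and -0.52 for *Col4a2*. It was -0.11 and -0.33 for *Hspg2*, -0.10 and -0.28 for *Fn1* and -0.04 and -0.25 for *Lamb1*. *Lama4* (-0.01 and 0.08), *Lamc1* (0.12 and 0.04) and *Nid2* (-0.12 and 0.04) were near 0. Thus 7 of the 10 genes were below 0 in both libraries, and their order was much the same in each. Library by library, 9 and 7 of the 10 genes were below 0, against 24.7% and 29.6% of the 3654 genes.

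The median rho with *Runx1* over the 10 genes was -0.12 in replicate 1 and -0.30 in replicate 2, against 0.12 and 0.11 over the 3654 genes. The total count of a cell had a rho of 0.34 and 0.35 with *Runx1* and of -0.27 and -0.38 with *Sparc*. *Col4a1* (-0.18 and -0.32), *Col4a2* (-0.07 and -0.22) and *Hspg2* (-0.21 and -0.40) also fell with depth. *Lamc1* (0.33 and 0.26), *Lama4* (0.02 and 0.24) and *Lamb1* (0.10 and 0.03) did not, and *Nid1*, *Nid2* and *Fn1* changed sign between libraries. With the score, the rho of the total count was 0.04 and -0.09. With the total count held fixed the median over the 10 genes was -0.17 and -0.25, and in thinned cells it was -0.20 and -0.40. Among the 33 and 35 cells with a *Runx1* count it was -0.18 and -0.54. The score had a rho of -0.30 and -0.34 with *Runx1*. Of the 3654 genes, 4.08% and 4.05% had a lower rho with the score than *Runx1* had.

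**Figure D3:**
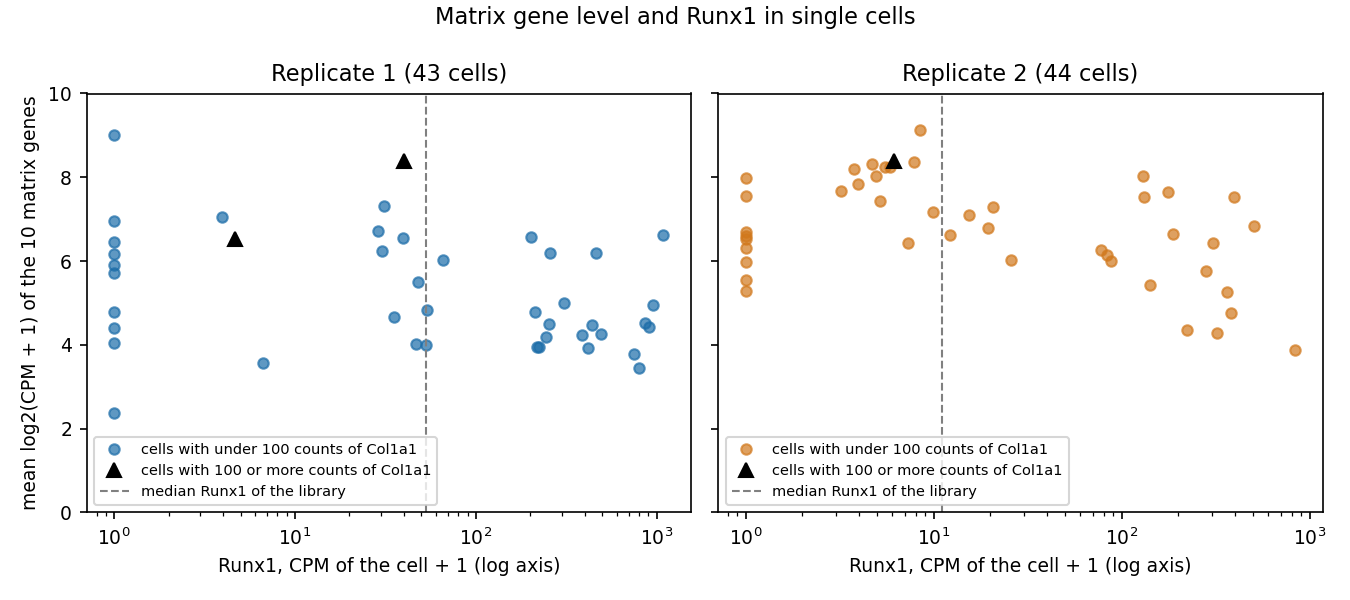
Mean log2(CPM + 1) of the 10 matrix genes against *Runx1* (CPM + 1, log axis) in the 43 cells of replicate 1 (left) and the 44 cells of replicate 2 (right), with black triangles for the cells with 100 or more counts of *Col1a1* and a dashed line at the library's median of *Runx1*. Cells to the right of the line have median scores of 4.49 and 6.35 and those to the left 6.04 and 7.61, and the classes overlap widely in both libraries.

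In the sums, *Sparc* had 905 CPM in *Runx1*-high and 3312 CPM in *Runx1*-low cells of replicate 1, and 1263 and 3572 CPM in those of replicate 2. *Sparc* was 3.66-fold and 2.83-fold lower in the *Runx1*-high cells, whose highest sum lay far under the lowest *Runx1*-low sum. In edgeR without a library block its log2 fold change was -1.70 (SE 0.33) with an adjusted p of 0.451, and with the library as a block -1.72 (SE 0.24) with an adjusted p of 2.24e-09.

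Both collagen chains were lower as well. *Col4a1* had 622 CPM in *Runx1*-high and 1306 CPM in *Runx1*-low cells of replicate 1, and 634 and 2013 CPM in those of replicate 2. *Col4a2* had 190 and 573 CPM in replicate 1, and 415 and 1130 CPM in replicate 2. The α1 chain was thus 2.101-fold and 3.17-fold lower and the α2 chain 3.02-fold and 2.72-fold lower, without overlap of the sums. The log2 fold change of *Col4a1* was -1.43 (SE 0.35; adjusted p = 0.663 in edgeR, 7.31e-05 with the block). That of *Col4a2* was -1.52 (SE 0.49; adjusted p = 0.776 in edgeR, 0.000233 with the block).

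Nidogen 1 and laminin β1 had the largest fitted fold changes of the 10 genes over both libraries. *Nid1* had 52.8 CPM in *Runx1*-high and 398 CPM in *Runx1*-low cells of replicate 1, and 104 and 282 CPM in those of replicate 2. It was 7.54-fold lower in the first library and 2.71-fold in the second, so the size of its difference depended on the library. *Lamb1* had 35.2 and 213 CPM in replicate 1, and 27.5 and 141 CPM in replicate 2, a 6.04-fold and a 5.14-fold difference. Its *Runx1*-low sums drew 35.6% and 24.3% of their counts from 1 cell each. The log2 fold change was -2.16 (SE 0.50; adjusted p = 0.637 in edgeR, 0.000104 with the block) for *Nid1* and -2.54 (SE 0.56; adjusted p = 0.616, and 0.00189 with the block) for *Lamb1*.

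Fibronectin differed less. *Fn1* had 549 CPM in *Runx1*-high and 940 CPM in *Runx1*-low cells of replicate 1, and 375 and 1037 CPM in those of replicate 2, a 1.71-fold and a 2.77-fold difference without overlap. Its log2 fold change was -1.13 (SE 0.37; adjusted p = 0.776 in edgeR, 0.0111 with the block). With *Runx1* classes made separately within the deeper and the shallower cells it was -0.38 (SE 0.35; adjusted p = 1.00 in edgeR, 0.965 with the block), and without the 3 *Col1a1* cells the blocked value was -1.05 (SE 0.32; adjusted p = 0.0638). Of the 6 genes called with the block, *Fn1* had the smallest difference. Its fold change was much smaller with classes made by depth and nearly as large without the *Col1a1* cells.

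*Hspg2* had 77.3 CPM in *Runx1*-high and 182 CPM in *Runx1*-low cells of replicate 1, and 190 and 465 CPM in those of replicate 2. It was 2.35-fold and 2.45-fold lower within the libraries, yet the sums overlapped because replicate 2 was higher in both classes. Its log2 fold change was -1.30 (SE 0.58; adjusted p = 0.879 in edgeR, 0.0631 with the block). *Lama4* had 22.6 and 141 CPM in replicate 1 but 65.4 and 105 CPM in replicate 2, and 47.4% of its *Runx1*-low counts in replicate 1 came from 1 cell. Its log2 fold change was -1.52 (SE 0.67; adjusted p = 0.879, and 0.258 with the block).

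The remaining laminin chain and nidogen 2 showed no such gap. *Lamc1* had 43.4 CPM in *Runx1*-high and 42.2 CPM in *Runx1*-low cells of replicate 1, and 83.6 and 125 CPM in those of replicate 2 (log2 fold change -0.42, SE 0.70, adjusted p = 1.00 in edgeR). *Nid2* had 18.6 and 19.2 CPM in replicate 1, and 31.96 and 29.8 CPM in replicate 2 (0.02, SE 1.08, adjusted p = 1.00). The sums of both genes overlapped. With SEs of this size, differences of 2-fold would not have been told from 0 for either gene.

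**Figure D4:**
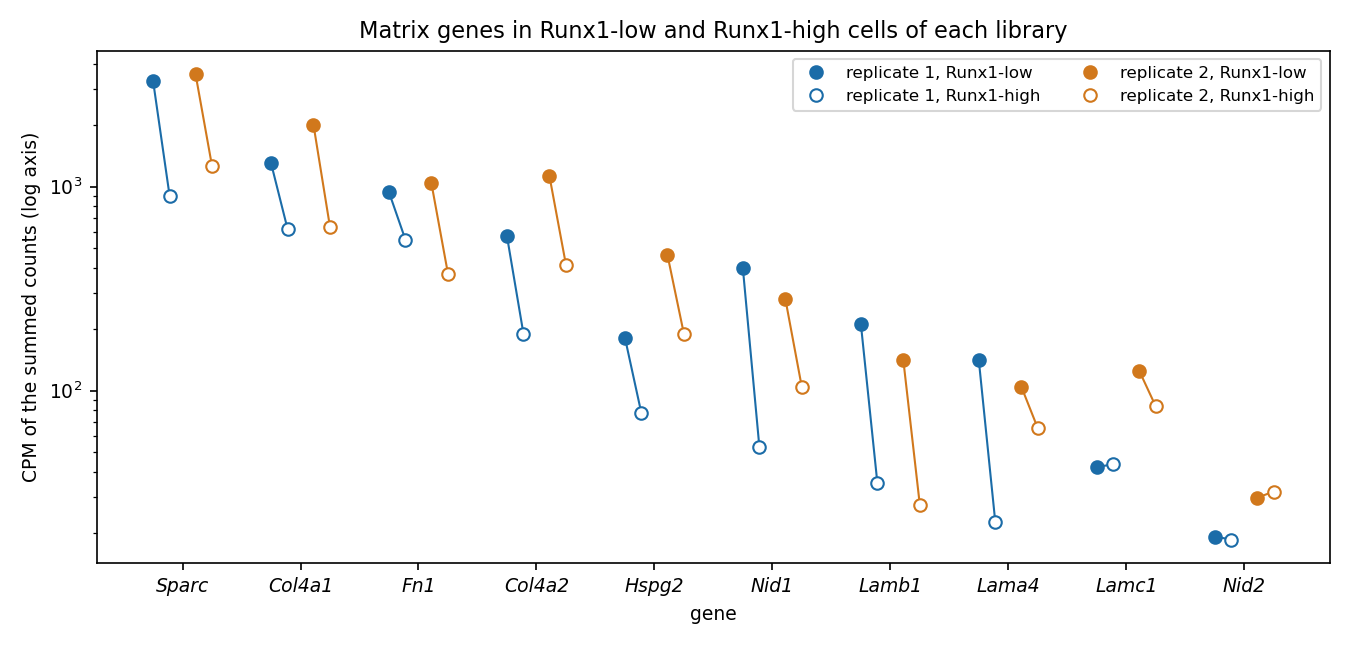
CPM of the summed counts (log axis) of each matrix gene in *Runx1*-low (filled) and *Runx1*-high (open) cells of replicate 1 (blue) and replicate 2 (orange), with a line joining the 2 classes of a library. The lines fall for 8 of the 10 genes in both libraries, most steeply for *Lamb1* and, in replicate 1, for *Nid1* and *Lama4*, while those of *Lamc1* in replicate 1 and of *Nid2* in both are nearly level.

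All 10 genes passed the low-count filter with 10630 genes in all. In edgeR with this filter and without a block, none of the 10 was called. There 1 of the 10630 genes was called in either direction (0.00941%), *Col1a1* itself. At an unadjusted p below 0.05, 7 of the 10 genes were lower, against 3.59% of all genes tested. In 7 of the 10 genes both *Runx1*-high sums lay below both *Runx1*-low sums, against 17.1% of all genes, and 8 of the 10 were lower in *Runx1*-high cells within both libraries, against 25.5%. The sums of a library share its preparation but no cell, so the number pairs them. With the library as a block 6 of the 10 genes were called lower (*Sparc*, *Col4a1*, *Nid1*, *Col4a2*, *Lamb1* and *Fn1*), against 1.19% of genes called lower. Without the low-count filter 3 of the 10 (*Lamb1*, *Nid1* and *Sparc*) were called, against 0.432% of 13206 genes. DESeq2 without a block called 4 of the 10 (*Sparc*, *Col4a1*, *Lamb1* and *Nid1*), against 1.01% of 10645 genes with an adjusted p. The median log2 fold change of the 10 genes was -1.47, beside -0.01 over all genes tested. The 4 sums leave 2 residual degrees of freedom for a gene, and 1 with the block, so both tests lean on the spread shared across genes. The blocked fit leans on it more. For *Sparc* the unadjusted p in edgeR was 0.00054 (SE 0.33) without the block and 1.48e-12 (SE 0.24) with it. The small p-values of the blocked fit thus do not measure the spread of a single gene between the 2 libraries.

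Depth and other cell types moved with the classes as follows. With classes made within the deeper and the shallower cells (the split by depth), the log2 fold change was -1.21 for *Lamb1*, -1.34 for *Nid1*, -1.12 for *Sparc*, -1.17 for *Col4a1*, -0.99 for *Col4a2* and -0.72 for *Hspg2*. *Lamb1*, which had -2.54 before, was thus the gene that moved most. The classes of this split were also less distinct in *Runx1*. *Runx1*-high cells began at 38.3 CPM of *Runx1* in replicate 1 and 6.32 CPM in replicate 2, and *Runx1*-low cells reached 211 and 129 CPM. The part of this overlap in the smaller fold changes was not tested. The median of the 10 genes was -1.05 and none was called, and with the block 2 genes (*Col4a1* and *Sparc*) were called lower, against 0.384% of all genes. In thinned cells, where every cell has the same weight, *Nid1* (-2.15) and *Sparc* (-1.46) stayed near their values, whereas *Lamb1* had -0.44, *Lama4* -0.27 and *Fn1* -0.61. With the block *Sparc* alone was called there, against 0.116%. Against the cells without a *Runx1* count, those with one had -1.12 for *Sparc*, -0.68 for *Lamb1* and -0.35 for *Fn1*, and none of the 10 genes was called. The 3 cells with 100 or more counts of *Col1a1*, 2 in replicate 1 and 1 in replicate 2, were all *Runx1*-low. The summed level of 8 mesenchymal markers was 68.1 CPM in *Runx1*-high and 2440 CPM in *Runx1*-low cells of replicate 1, and 29.5 and 827 CPM in those of replicate 2. Those 3 cells held 2.75% of all counts and between 0.362% (*Lamc1*) and 9.73% (*Lamb1*) of the counts of the matrix genes. In the 3 cells, 10, 7 and 8 of the 10 genes were above the median of the other cells of the library, and none was above the highest of them.

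Without the 3 cells, the levels of the matrix genes changed little. *Sparc* was at 1917 ± 315 CPM, *Col4a1* at 1002 ± 243 CPM and *Lamb1* at 79.0 ± 10.9 CPM (SD, n = 2). The median log2 fold change between *Runx1* classes made anew was -1.49 over the 10 genes and 0.02 over the 6 mesenchymal markers still tested. In edgeR none of the 10 was called without a block. With it 6 were, against 1.12% of all genes, *Hspg2* (adjusted p = 0.0262) taking the place of *Fn1*. Of 6 markers of macrophages, *Mrc1* (125 and 162 CPM, 71 cells) and *Lyz2* (64.1 and 27.5 CPM, 34 cells) were detected widely. *Csf1r* (4 cells) and *Ptprc* (3 cells) were rare, and *Cx3cr1* and *Adgre1* had no count in any cell. The summed level of the list, which came mostly from *Mrc1* and *Lyz2*, was 127 and 323 CPM in *Runx1*-high and *Runx1*-low cells of replicate 1. In those of replicate 2 it was 189 and 200.1 CPM. Most cells with *Mrc1* had no count of *Ptprc* or *Csf1r*, and whether the level came from macrophages was not tested. In the blocked edgeR fit of all cells *Mrc1* was called lower in *Runx1*-high cells (-1.74, SE 0.50, adjusted p = 0.0349), against 1.19% of all genes. Of 6 markers of erythroid cells, *Hbb-y* (13 cells), *Hbb-bh1* (5 cells), *Hba-x* (2 cells) and *Klf1* (2 cells) were detected and *Hba-a1* had no count in any cell. The summed level of that list was 15.6 and 0.315 CPM in *Runx1*-high and *Runx1*-low cells of replicate 1 and 33.1 and 6.47 CPM in those of replicate 2.

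The endothelial markers moved the same way as the matrix genes. All 12 were lower in *Runx1*-high cells, against 50.3% of all genes tested, with a median log2 fold change of -0.99. In filtered edgeR none was called without a block and 5 with it (*Cdh5*, *Kdr*, *Tek*, *Cldn5* and *Nrp1*), against 1.19% of all genes. DESeq2 without a block called *Nrp1* alone, against 1.01% of genes called lower. With the block and the split by depth *Kdr* and *Cldn5* alone were called, against 0.384% of all genes called lower. Their summed level was 2711 CPM in *Runx1*-high and 5650 CPM in *Runx1*-low cells of replicate 1, and 4567 and 8509 CPM in those of replicate 2. Besides *Runx1*, which made the classes, 11 hematopoietic markers were tested. In filtered edgeR none was called without a block and 5 were higher with it (*Coro1a*, *Adgrg1*, *Neurl3*, *Kit* and *Bcl11a*), against 0.386% of genes called higher. *Coro1a* alone was called higher by DESeq2 without a block, beside 31 genes called higher in all. The median of those 11 was 1.46 in edgeR without a block, where 1 of them, *Myb* (-0.53, SE 1.36), was lower. With the block and the split by depth, 5 were called as well, against 11 of 10686 genes called higher. *Spi1* and *Ikzf2* stood there in place of *Coro1a* and *Bcl11a*.

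The partners of the matrix genes were read from 4 lists. Of the 11 other basement membrane genes tested, 9 were lower in *Runx1*-high cells (median -2.01, against 50.3% lower among all genes tested). In filtered edgeR none was called without a block. With it *Col18a1* (-1.17, SE 0.27, adjusted p = 0.00281 in edgeR), *Tinagl1* (-3.67, SE 0.79, adjusted p = 0.000675) and *Lama3* (-4.64, SE 1.26, adjusted p = 0.0221) were called, against 1.19% of all genes. With the block and the split by depth none of the list was called and its median was -1.21. DESeq2 without a block called *Tinagl1* alone, against 1.01% of genes called lower. Both *Agrn* (-2.09, SE 0.70, adjusted p = 0.114) and *Lamb2* (-2.75, SE 0.92, adjusted p = 0.117) missed the threshold in the blocked fit. Of the lower genes, *Col18a1* was the only one with a level near those of the type IV collagens.

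Collagen chains are hydroxylated, folded and cross-linked by a set of enzymes before and after secretion. All 14 of these genes tested were lower in *Runx1*-high cells, against 50.3% of all genes tested, with a median of -0.90. In filtered edgeR none was called without a block. Without the 3 *Col1a1* cells 11 of 13 were lower, again against 50.3%, with a median of -0.70. With the block, *Serpinh1* (the collagen chaperone Hsp47, 431 and 657 CPM, -1.07, SE 0.31, adjusted p = 0.0370 in edgeR) and *Pxdn* (peroxidasin, which cross-links type IV collagen, 86.5 and 182 CPM, -1.93, SE 0.47, adjusted p = 0.00674) were called, against 1.19% of all genes, and neither was with the split by depth added. *P4hb*, the β subunit of prolyl 4-hydroxylase, at 431 and 375 CPM, was not (-0.81, SE 0.33, adjusted p = 0.301). DESeq2 without a block called *P4ha2* alone (4.93 and 22.8 CPM, 16 cells), against 1.01% of genes called lower. *Lox* had no count in any cell.

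Of the receptors, *Itgb1* (integrin β1, 282 and 537 CPM), *Itga5* (191 and 242 CPM), *Itga6* (175 and 223 CPM) and *Dag1* (dystroglycan, 153 and 105 CPM) were the most abundant. Of 15 tested, 14 were lower in *Runx1*-high cells (median -1.61), against 50.3% of all genes tested, and none was called with or without the block. *Itgb1* came closest in the blocked edgeR fit (-1.09, SE 0.33, adjusted p = 0.0538), whereas *Itga6*, the α chain of a laminin receptor, gave -0.07 (SE 0.41). Without the 3 *Col1a1* cells the median was -1.24.

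Of 14 matrix proteases and inhibitors tested, all were lower (median -1.69), against 50.3% of all genes tested, and none was called in filtered edgeR without a block. *Timp3* (an inhibitor held in the matrix, 156 and 234 CPM), *Mmp2* (103 and 168 CPM) and *Mmp14* (86.9 and 185 CPM), both matrix metalloproteinases, were the most abundant. With the block *Adamts5*, a proteoglycan-cleaving protease, was called (-2.54, SE 0.68, adjusted p = 0.0197 in edgeR), against 1.19% of all genes, and *Mmp14* was not (-1.58, SE 0.47, adjusted p = 0.0532). With the split by depth added, *Adamts5* was no longer called and *Timp3* was the only one of the list that was, against 0.384% of all genes called lower. *Mmp15* (41.5 and 18.9 CPM) was the only one called by DESeq2 without a block, against 1.01% of genes called lower.

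**Figure D5:**
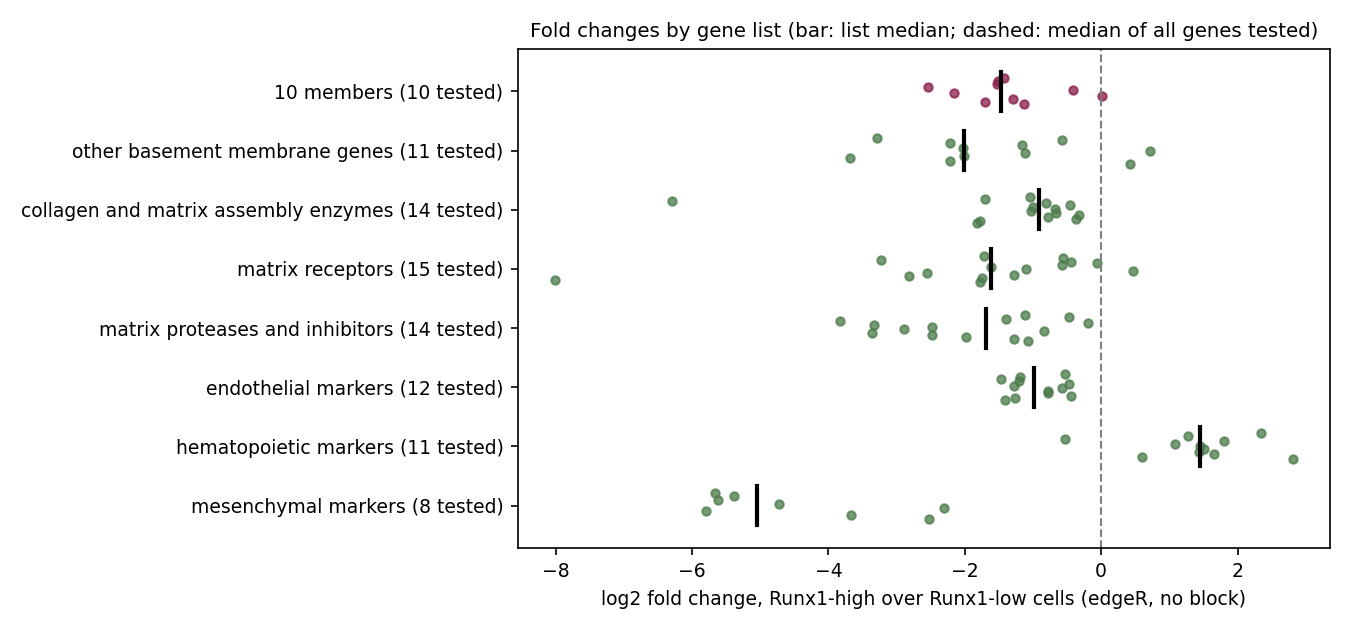
Log2 fold change of each tested gene between *Runx1*-high and *Runx1*-low cells in edgeR without a block, by gene list, with black bars at list medians and a dashed line at the median of all genes tested (-0.01). The medians of the matrix genes (-1.47), of their partner lists (-2.01 to -0.90) and of the endothelial markers (-0.99) lie left of the line. That of the hematopoietic markers (1.46) lies right of it. Single genes of some lists lie on the other side, such as *Nid2* (0.02) and *Myb* (-0.53). The median of the mesenchymal markers (-5.05) changed to 0.02 without the 3 *Col1a1* cells.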

How the data were processed

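Each of the 2 libraries of single yolk sac PK44 cells had its own table of counts. According to the methods and the labels, the authors made these counts by modified STRT-seq with an oligo dT primer carrying barcode and UMI, alignment of Read 1 to the mm10 transcriptome with HISAT2 2.1.0, counting of uniquely mapped reads with HTSeq and removal of duplicates by UMI, and removed low-quality cells. The deposited counts were not normalized, and they do not show how complete the removal of duplicates was. The barcode tables were not used here.

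Members, gene lists and tests were chosen with earlier results of these data known. CPM are counts of a cell, or summed over cells, per 1e+06 counts. All deposited cells were kept and no doublet caller was run, since the authors had already left out cells with unusually many reads. Counts summed per library and *Runx1* class were tested by the quasi-likelihood test of edgeR 4.0.16 (R 4.3.3) after filterByExpr and TMM, with p-values adjusted by Benjamini-Hochberg over all genes tested and a threshold of 0.05. The SE given for edgeR is the absolute log2 fold change divided by the square root of the F statistic, and so is approximate. The blocked fit adds the library as a term, since sums with the same number come from the same library, though from different cells. Deviations of the replicate 1 sums from their class means correlated at 0.197 over 10630 genes, which are not independent replicates. Alternatives were each library left out, thinned cells, other splits of *Runx1*, size factors by relative log expression, all genes without a filter, and DESeq2 1.42.0. The tests were tried on simulated counts first. Named genes were the 10 members, *Runx1*, the 10 genes most like the members' score by the smaller of both libraries' rho, and from each list the most abundant (up to 4) and the called genes. Other genes of the lists named for low, absent or uncalled values, and the grouping of 5 members by co-expression, were chosen after their values were seen. Shares have exact (Clopper-Pearson) 95% intervals. Gene positions are from GENCODE M21 (GRCm38), which held 22127 of 23154 symbols, and promoter sequences from RefSeq (GRCm38.p6). Further tools were pandas 2.3.3, scipy 1.17.1, numpy 2.4.6 and matplotlib 3.10.9 under Python 3.11.15.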

Additional observations from a re-analysis of the deposited data

How the results depend on the processing

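In filtered edgeR without a block no member was called, and none with other size factors, without the *Col1a1* cells, with *Runx1* count against none, with the 14 highest against the 14 lowest cells of *Runx1* per library, with *Runx1* split within the deeper and the shallower cells or in thinned cells. The replicate block called 6, DESeq2 4 and no low-count filter 3. With the replicate block and, chosen after seeing the data, a further change, 6 were called without the *Col1a1* cells, 2 with the split by depth and 1 in thinned cells. Of all genes, 1 was called in filtered edgeR without a block, 167 with the replicate block, 138 by DESeq2, 68 without a filter, 5 in thinned cells and 0 without the *Col1a1* cells (556 at an unadjusted p below 0.05), by *Runx1* count against none or with the split by depth (344 at an unadjusted p below 0.05). The blocked combinations gave 150, 52 and 9. Outside *Nid2*, the 9 other members had fold changes below 0 under all 14 alternatives, with *Lamc1* at -0.01 in replicate 1 alone after size factors, where its unscaled CPM gave 0.04. *Nid2* turned from 0.02 to -0.0059 with the replicate block, -0.012 with DESeq2, -0.011 with other size factors, -0.67 by *Runx1* count, -0.37 by the extremes of *Runx1*, -0.40 with the split by depth, -0.75 thinned and -0.82 and -1.06 for these last 2 with the block. With each library left out it ranged from -0.10 to 0.10. The median rho with *Runx1* in replicate 2 was -0.54 in cells with a *Runx1* count, against -0.30. The summed level was 4153 to 5482 CPM with each library left out. The cause of these changes was not tested. With 2 libraries the precision is limited, and *Nid2*, *Lama4*, *Lamb1* and *Lamc1*, with 10 or more counts in 20, 22, 25 and 29 cells, are limited by depth.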
